A study of Mus musculus with 6 samples.

Results

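The genes described here are 36 mouse genes of glycolysis and of the response to low oxygen. Their names come from a list chosen with earlier results of these data known. All were found among the 31115 genes of a bulk RNA-seq table. They fall into glucose transporters, enzymes of upper and lower glycolysis, proteins that handle pyruvate and lactate, enzymes that set fructose 2,6-bisphosphate, the oxygen-sensing machinery and targets of hypoxia-inducible factor (HIF). The libraries come from cells labelled as mouse neonatal cardiomyocytes, heart muscle cells of newborn mice. Of the 6 libraries, 3 carry the genotype Ad-scramble and 3 are titled Ad-SPTBN1, whose genotype label is overexpression of βII spectrin, a membrane skeleton protein encoded by Sptbn1. All were kept in normal culture, in DMEM with fetal bovine serum and antibiotics, and are labelled day 2. The labels describe neither the constructs nor the purity of the cells, and nothing states that the replicates are independent cultures. The p-values therefore reflect library-to-library spread alone, and that spread may be technical. No low-oxygen treatment is labelled.

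Glycolysis splits glucose into pyruvate in the cytosol and yields ATP without oxygen, and lactate dehydrogenase turns the pyruvate into lactate. Prolyl hydroxylases mark the HIF alpha proteins for destruction while oxygen is present. When oxygen falls, HIF binds short DNA elements with a CGTG core near its target genes, which include most glycolytic enzymes as well as genes for pH, collagen and growth control. Fetal and newborn heart muscle relies on glycolysis more than adult heart muscle, which burns mainly fatty acids.

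Values are FPKM, the fragments on a gene scaled by its length and by the library's total. Levels, ranks and isoform shares compared between genes therefore depend on the length used for each gene. Most values matched the length of all annotated exons of a gene joined, which can exceed that of its main transcript. Reads recovered from these values came to between 18775304 and 19638662 per library. In each library this exceeded the total that the same values imply, which ran from 18223040 to 19062980. The reason was not tested, and recovered reads are estimates. The targeted gene went against its label. Sptbn1 (chromosome 11, 30099395 to 30268175, minus strand, GRCm38) held 50.8, 48.3 and 50.1 FPKM in the Ad-scramble replicates against 16.1, 16.5 and 15.7 FPKM in the Ad-SPTBN1 replicates, or 32.4% of the Ad-scramble mean. The log2 difference was -1.57 ± 0.03 (SE, n = 3 per group; limma, adjusted p = 2.72e-06). Every direction below is given as the libraries are labelled, and "higher" and "lower" mean in the libraries labelled Ad-SPTBN1.

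Across the genes, 7 of 35 tested rose in the libraries labelled Ad-SPTBN1, and none fell. The 7 are the glucose transporter Slc2a1, the glycolytic enzymes Hk2, Gpi1 and Pgam1, and the HIF targets Car9, Ero1l and Ndrg1. A rise or fall was called at an adjusted p under 0.05 in limma, on log2(FPKM + 1) and over all 12608 genes whose mean reached 1 FPKM. The share called was 20% of the tested members, against 5.54% of all tested genes called higher and 5.50% called lower. The members were chosen with earlier results of these data known, so this contrast is not independent support. Their median level was also higher, at 25.1 FPKM against 6.57 over all tested genes. The shares were not matched for level. With a minimum of 5 FPKM, 7 of the 28 members then tested and 645 of 7359 genes were called higher. With the minimum of 1 FPKM, 28 members were not called. Of these, 5 had an unadjusted p under 0.05, 4 with values above 0 (Pfkm, Pgk1, Egln3 and P4ha1) and 1 below 0 (Adm). In all, 11 of the 35 stood above 0 and 1 below at that cut, against 1715 and 1679 of the 12608 tested genes. With limma-voom on the recovered reads, 9 members were called higher, the additions being Pgk1 and P4ha1, and again none lower. Over the 12601 genes tested that way, 1084 were called higher and 1062 lower.

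The differences were small apart from that of Car9. The difference was above 0 for 26 of the 35 tested members and below 0 for 9, with a median of 0.04 on the log2 scale against 0.00 over all tested genes. In 13 members every library labelled Ad-SPTBN1 stood above every library labelled Ad-scramble, and in 4 every one stood below. Over all tested genes these separations held for 16.5% and 15.8%. Only Aldoc and a second Aldoa entry lay under the level needed for a test.

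**Figure D1:**
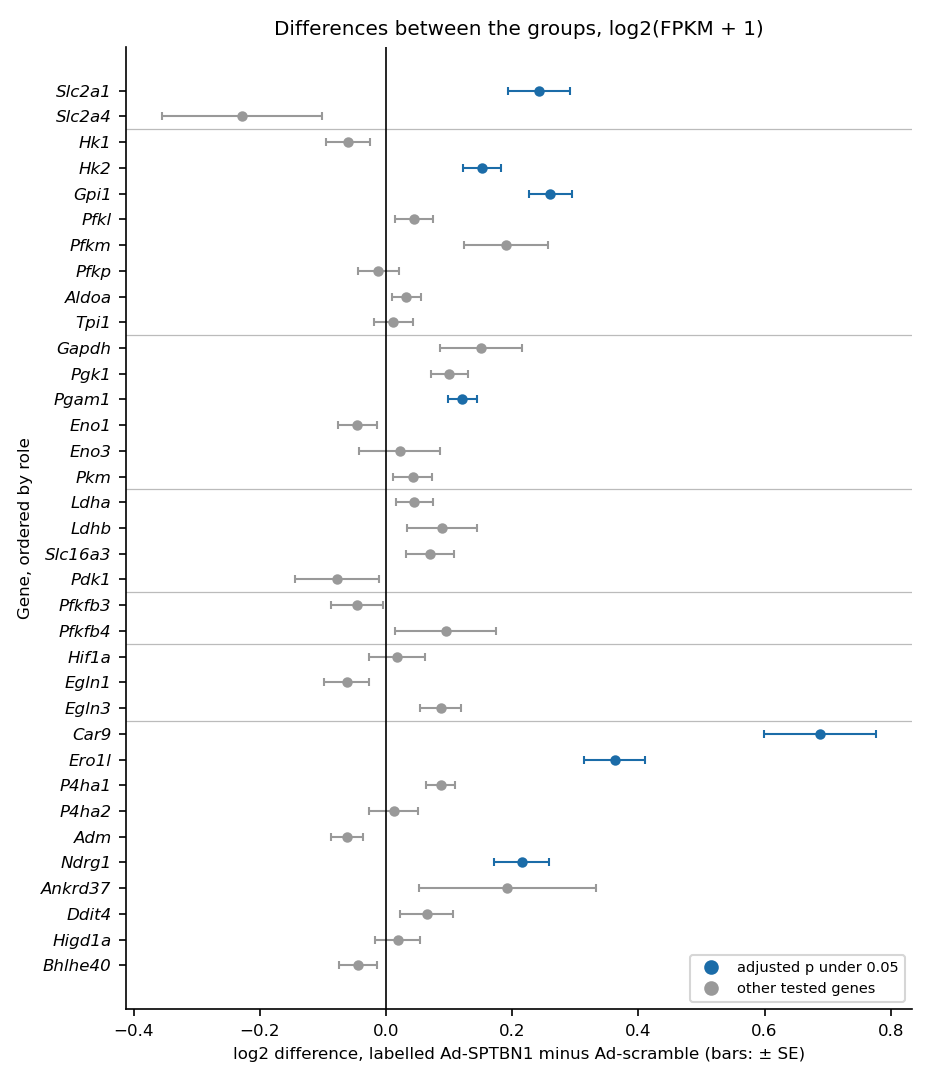
Log2 difference of log2(FPKM + 1), labelled Ad-SPTBN1 minus labelled Ad-scramble, for the 35 tested genes in order of role; points are limma estimates, bars are ± SE, and blue marks adjusted p under 0.05. Car9 lies furthest to the right at 0.69, and no called gene lies left of 0.

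The calls differed in how far they rested on single libraries. Car9, Gpi1 and Ero1l were called whichever library was left out, with highest adjusted p-values of 0.0256, 0.0277 and 0.0243 in limma. Slc2a1 and Hk2 lost their call without Ad-scramble 1 or without any of the libraries labelled Ad-SPTBN1, with adjusted p up to 0.0712 and 0.0784. Pgam1 lost it without Ad-scramble 1, Ad-SPTBN1 2 or Ad-SPTBN1 3, with adjusted p up to 0.0721. Ndrg1 lost it without any library other than Ad-scramble 3, with adjusted p up to 0.0809. Fitted without a trend in the prior variance, Hk2 and Pgam1 also lost their call. The number of members called higher was 3 without Ad-scramble 1, 4 without Ad-SPTBN1 1 and 3 without either Ad-SPTBN1 2 or Ad-SPTBN1 3. It was 6 and 7 without Ad-scramble 2 and 3.

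Because HIF acts through its DNA element, the windows around the start sites are shown for Car9, Ero1l and Slc2a1, 3 called genes that hold the element's core, and for Gpi1, a called gene that does not. The windows are RefSeq's (GRCm38.p6, 250 bases before to 50 after the start, written 5′ to 3′ on the gene's strand), and capitals mark the core in the forms ACGTG and GCGTG or, on the other strand, CACGT and CACGC.
Car9, chr4:43506776-43507075, plus strand: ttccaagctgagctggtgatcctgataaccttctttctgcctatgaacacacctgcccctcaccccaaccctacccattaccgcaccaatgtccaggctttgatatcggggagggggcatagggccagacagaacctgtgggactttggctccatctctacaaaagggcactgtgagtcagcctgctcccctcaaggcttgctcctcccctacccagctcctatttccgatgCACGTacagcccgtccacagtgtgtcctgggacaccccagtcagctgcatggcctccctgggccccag
Ero1l (Ero1a in RefSeq), chr14:45318523-45318822, minus strand: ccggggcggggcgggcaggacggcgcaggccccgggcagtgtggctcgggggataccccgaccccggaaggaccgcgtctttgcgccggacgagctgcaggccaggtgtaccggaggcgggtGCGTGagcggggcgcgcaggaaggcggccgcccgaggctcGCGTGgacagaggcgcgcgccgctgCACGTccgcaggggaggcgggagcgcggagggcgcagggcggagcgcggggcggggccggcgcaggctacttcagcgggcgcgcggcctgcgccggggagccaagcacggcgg
Slc2a1, chr4:119108495-119108794, plus strand: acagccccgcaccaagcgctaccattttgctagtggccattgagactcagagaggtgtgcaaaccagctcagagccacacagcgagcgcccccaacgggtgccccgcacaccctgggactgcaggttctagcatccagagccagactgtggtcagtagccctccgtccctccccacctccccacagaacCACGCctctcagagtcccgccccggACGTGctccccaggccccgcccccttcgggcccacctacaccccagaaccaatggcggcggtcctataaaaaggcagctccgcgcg
Gpi1, chr7:34230287-34230586, minus strand: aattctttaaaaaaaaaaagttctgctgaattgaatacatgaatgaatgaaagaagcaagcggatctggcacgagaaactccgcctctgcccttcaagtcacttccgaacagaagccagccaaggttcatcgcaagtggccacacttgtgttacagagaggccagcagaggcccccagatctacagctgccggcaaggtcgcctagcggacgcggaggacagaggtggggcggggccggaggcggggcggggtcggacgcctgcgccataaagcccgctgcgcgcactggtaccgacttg

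In the Car9 window the CACGT lies from 18 to 14 bases before the start. In Slc2a1 an ACGTG lies from 36 to 32 bases before it. Ero1l holds a CACGT and 2 copies of GCGTG within 128 bases of the start. A window was matched by gene ID for 33 of the 36 members, all but Slc2a4, Ndrg1 and Bhlhe40. ACGTG was present on either strand in 23 of the 33 (69.7%), against 21.8% of the 27025 genes with a window and 29.9% of the 9124 of these that were tested for expression. Among matched members it was present in 5 of the 6 called higher and in 17 of the 26 tested but not called, so most of the members without a called difference also hold it. GCGTG was present in 23 of the 33 members (69.7%), 3 of the 6 called and 19 of the 26 not called. It was present in 35.2% of all genes with a window and in 56.9% of those tested for expression. The forms ACGTG and CACGT overlap where CACGTG is read. The members include genes known as HIF targets, so these shares describe the list, and a match is not a binding site.

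Glucose enters cells through facilitative transporters, of which Slc2a1 (GLUT1) is the main form of fetal and dividing cells and Slc2a4 (GLUT4) the insulin-responsive form of adult heart and skeletal muscle. Slc2a1 (chromosome 4, 119108711 to 119137983, plus strand) stood at 47.8, 49.9 and 43.6 FPKM in Ad-scramble and at 56.9, 55.5 and 55.3 FPKM in Ad-SPTBN1 libraries. The groups did not overlap, and the spread was wider in Ad-scramble. The mean rose from 47.1 ± 3.21 to 55.9 ± 0.857 FPKM (SD, n = 3 each), a log2 difference of 0.24 ± 0.05 (SE; limma, adjusted p = 0.0225). Without a filter on low values this call was lost (adjusted p = 0.0758).

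Slc2a4 lay far below it, at 1.21, 1.25 and 1.72 FPKM in Ad-scramble and 1.19, 1.2 and 0.747 FPKM in Ad-SPTBN1 libraries. It did not pass the test (log2 difference -0.23 ± 0.13 SE, limma, adjusted p = 0.303), and its highest Ad-scramble and lowest Ad-SPTBN1 values stand apart from the rest. Slc2a1 therefore made up 97.1% of the summed FPKM of this pair in Ad-scramble and 98.2% in Ad-SPTBN1 libraries.

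Upper glycolysis traps glucose as glucose 6-phosphate and commits it by a second phosphorylation. Hexokinase 2 and glucose-6-phosphate isomerase, its opening enzymes, rose, while the phosphofructokinases and aldolases did not pass the test. Of the 8 genes tested here 2 were called higher, against 5.54% of all tested genes.

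Hk2 (chromosome 6, 82725025 to 82774454, minus strand), the hexokinase of insulin-sensitive tissue, stood at 35.5, 37.1 and 37.3 FPKM in Ad-scramble and at 40.3, 41.2 and 40.9 FPKM in Ad-SPTBN1 libraries. All Ad-SPTBN1 values lay above all Ad-scramble values, with means of 40.8 ± 0.434 and 36.6 ± 1.01 FPKM (SD, n = 3) and a log2 difference of 0.15 ± 0.03 (SE; limma, adjusted p = 0.0222). Hk1, the form most tissues share, stood at 9.41, 9.60 and 9.22 FPKM against 8.96, 8.95 and 9.03 FPKM. Its Ad-SPTBN1 values all lay below its Ad-scramble values, but the difference did not pass the test (log2 -0.06 ± 0.04 SE, limma, adjusted p = 0.321). The share of Hk2 in the summed FPKM of both was 79.6% ± 0.577 in Ad-scramble and 81.96% ± 0.175 in Ad-SPTBN1 libraries (SD, n = 3), without overlap.

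Gpi1 (chromosome 7, 34201330 to 34230336, minus strand), which turns glucose 6-phosphate into fructose 6-phosphate, stood at 49.4, 49.3 and 46.3 FPKM in Ad-scramble and at 57.8, 59.4 and 57.2 FPKM in Ad-SPTBN1 libraries. The gap between the groups was wider than the range within either. The mean rose from 48.4 ± 1.77 to 58.1 ± 1.16 FPKM (SD, n = 3), a log2 difference of 0.26 ± 0.03 (SE; limma, adjusted p = 0.00558).

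Phosphofructokinase, the committed step, is built from liver (Pfkl), muscle (Pfkm) and platelet (Pfkp) type subunits. By FPKM, Pfkl was the most abundant at 23.2, 23.2 and 23.8 FPKM in Ad-scramble against 24.5, 24.3 and 23.7 FPKM in Ad-SPTBN1 libraries, with overlapping groups (log2 difference 0.04, limma, adjusted p = 0.390). Pfkp followed at 10.8, 10.9 and 10.8 FPKM against 10.6, 10.8 and 10.8 FPKM (log2 difference -0.01, limma, adjusted p = 0.852). Their recovered reads were closer, at 2928, 2828 and 2946 for Pfkl and 2742, 2651 and 2678 for Pfkp in Ad-scramble libraries. The exon lengths are 6675 and 13401 bases, so the size of the FPKM gap depends on length. Pfkl had more recovered reads than Pfkp in every library. Pfkm, the muscle form, was the lowest at 4.46, 4.50 and 4.14 FPKM against 5.43, 5.35 and 4.60 FPKM. Its Ad-SPTBN1 values were the higher in every library, with 1 close to the Ad-scramble range, and its log2 difference of 0.19 ± 0.07 (SE) did not pass the test (limma, adjusted p = 0.117). Pfkm made up 11.3% of the 3 subunits' summed FPKM in Ad-scramble and 12.8% in Ad-SPTBN1 libraries.

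Aldolase splits fructose 1,6-bisphosphate. Aldoa, its muscle form, was the most abundant upper glycolysis gene, at 215.5, 215.1 and 214.8 FPKM in Ad-scramble and 219.2, 217.0 and 223.8 FPKM in Ad-SPTBN1 libraries. Each Ad-SPTBN1 value lay above the Ad-scramble values by a small margin, and the log2 difference of 0.03 ± 0.02 (SE) did not pass the test (limma, adjusted p = 0.428). A second entry with the same name held 0.452 and 0.536 FPKM on average. Aldoc, the brain form, was at 0.291, 0.538 and 0.380 FPKM against 0.386, 0.292 and 0.431 FPKM and was not tested. Tpi1, which interconverts the products of that split, averaged 100.3 ± 1.82 and 101.1 ± 3.11 FPKM (SD, n = 3; limma, adjusted p = 0.854).

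**Figure D2:**
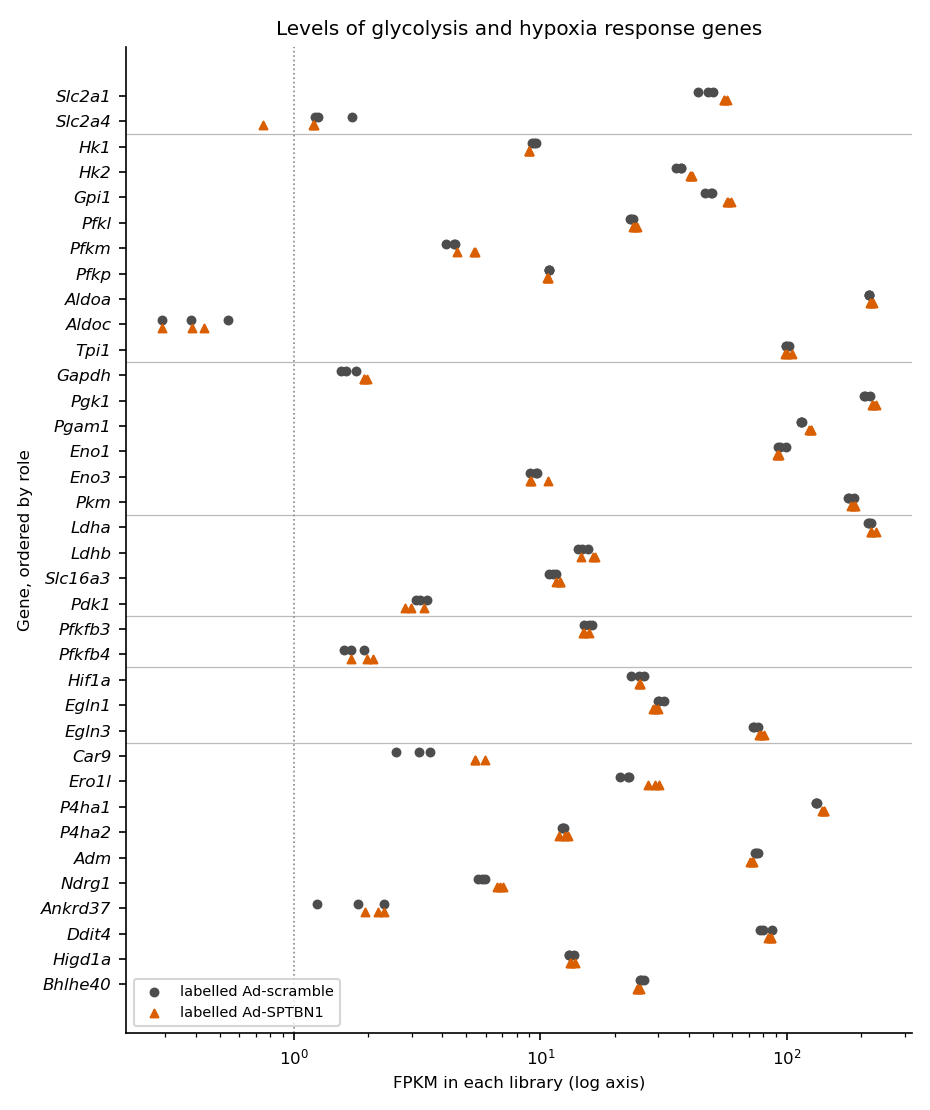
FPKM of each listed gene in each library on a log axis, in order of role; circles are libraries labelled Ad-scramble and triangles those labelled Ad-SPTBN1. The genes span from Aldoc at under 1 FPKM to Ldha and Aldoa at over 200 FPKM, and most circles and triangles lie close together.

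Lower glycolysis turns the triose phosphates into pyruvate and yields the ATP. Phosphoglycerate mutase rose, and the other 5 tested genes, among them the abundant Pgk1, Eno1 and Pkm, did not pass the test. Pgam1 (chromosome 19, 41911871 to 41918664, plus strand), which moves the phosphate of 3-phosphoglycerate, stood at 113.9, 113.9 and 115.5 FPKM in Ad-scramble and at 123.2, 125.2 and 125.1 FPKM in Ad-SPTBN1 libraries. The libraries of each group lay close together and the groups were well apart. The mean rose from 114.4 ± 0.923 to 124.5 ± 1.13 FPKM (SD, n = 3), a log2 difference of 0.12 ± 0.02 (SE; limma, adjusted p = 0.0192).

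Pgk1, the first ATP-making enzyme, had the highest FPKM of the lower glycolysis genes as listed. It stood at 205.6, 207.9 and 216.3 FPKM in Ad-scramble and 229.7, 221.5 and 224.3 FPKM in Ad-SPTBN1 libraries. The groups did not overlap, but the log2 difference of 0.10 ± 0.03 (SE) missed the threshold (limma, adjusted p = 0.0696), while limma-voom on recovered reads called it (adjusted p = 0.0185). Eno1, the common enolase, stood at 94.1, 98.7 and 92.3 FPKM against 91.0, 92.8 and 92.2 FPKM, with overlap (log2 difference -0.05, limma, adjusted p = 0.401). Eno3, the muscle enolase, was lower at 9.11, 9.69 and 9.59 FPKM against 10.7, 9.09 and 9.12 FPKM, also with overlap (log2 difference 0.02, limma, adjusted p = 0.873). Eno1 made up 90.9% of the pair in Ad-scramble and 90.5% in Ad-SPTBN1 libraries. Pkm, the pyruvate kinase of muscle and most other tissues, averaged 181.0 ± 5.59 and 186.4 ± 3.97 FPKM (SD, n = 3; limma, adjusted p = 0.436).

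Gapdh, an enzyme usually among the most abundant transcripts of a cell, was listed at only 1.56, 1.62 and 1.79 FPKM in Ad-scramble and 1.93, 1.98 and 1.93 FPKM in Ad-SPTBN1 libraries. The groups did not overlap, and the log2 difference was 0.15 ± 0.06 (SE; limma, adjusted p = 0.190). The mouse genome holds many Gapdh pseudogenes, and their entries carried far more reads than the gene. Copies were counted where they held at least 3% of the gene's 50-base words. Across the 64 such copies the libraries held 4193 to 4883 recovered reads, against 122 to 155 on Gapdh itself, which was 2.62% to 3.16% of the sum. The copies Gm13394 and Gm5559 alone averaged 98.99 ± 0.737 and 84.7 ± 4.20 FPKM in Ad-scramble libraries (SD, n = 3). With the copies' reads added and scaled by the gene's own 4133 exon bases, Gapdh came to 58.1 ± 1.49 FPKM in Ad-scramble and 63.0 ± 1.87 in Ad-SPTBN1 libraries. The log2 difference was 0.12 (limma, adjusted p = 0.0688). This joint level lies below that of Gm13394 alone, since the FPKM of each copy uses the copy's own length. The joint level therefore depends on the length chosen. How reads that match several places were counted is not given, so the level and the difference of Gapdh are uncertain.

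The same check was made for the other genes, with the share of a gene's 50-base words found elsewhere among annotated transcripts. Eno1 shares 26.0% of its words. Of all its words, 25.3% are found in the protein-coding retrogene Eno1b and 19% in the pseudogene copy Gm4735. Gm4735 averaged 145.3 ± 7.27 and 142.7 ± 3.02 FPKM, and Eno1b 59.5 ± 0.355 and 56.6 ± 2.69 FPKM (SD, n = 3). Eno1 held 72.4% to 73.3% of its joint reads with Gm4735 and 62.3% to 63.4% of those with both. With Gm4735 added its log2 difference was -0.04 (limma, adjusted p = 0.490). Pgam1 shares 36.2% but held at least 98.3% of the joint reads. It remained called with its copies (log2 difference 0.13, limma, adjusted p = 0.0153), while the entry of its copy Pgam1-ps2 averaged 3.38 ± 0.239 and 5.09 ± 0.5003 FPKM. Pgk1 shares the most, 53.9%, but held at least 99.3% of the joint reads, and with its copies it was not called (limma, adjusted p = 0.0709). Pkm, Higd1a and Ldhb share 25.8%, 24.4% and 21%, held at least 97.0% of the joint reads and were not called with copies added. Gpi1 shares 15.8%, the most with Gm26762 (8.3%), whose reads were not added. With only its pseudogene copy Gm1840 (7.9%) added, Gpi1 was called at a log2 difference of 0.26 (limma, adjusted p = 0.00575). Car9, Ero1l, Slc2a1, Hk2 and Ndrg1 share 6.0% of their words or less. Tpi1 shares 4.2%. The pseudogene Tpi-rs11 holds about 3.0% of its words and was not counted as a copy. Tpi-rs11 averaged 12.1 FPKM in Ad-scramble and 17.4 FPKM in Ad-SPTBN1 libraries. Ankrd37 shares 16.5% of its words with Lrp2bp and Pfkm shares 8.8% with the antisense gene Gm26513, and since the use of strand is not given, reads on these stretches cannot be assigned.

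**Figure D3:**
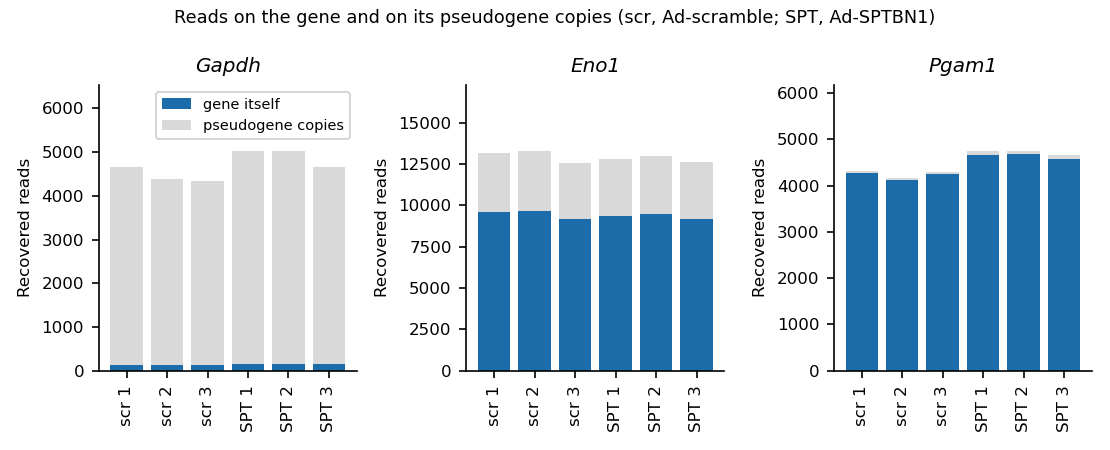
Recovered reads in each library on the gene (blue) and on its annotated pseudogene copies (grey), as stacked bars. Gapdh reads lie almost wholly on copies, where the gene holds 2.62% to 3.16% of the sum, while Eno1 holds 72.4% to 73.3%, with the retrogene Eno1b not drawn, and Pgam1 at least 98.3%.

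At the end of the pathway, none of the 4 genes for pyruvate and lactate was called, by limma or by limma-voom, and none had an unadjusted p under 0.05. Since limma called 5.54% of all tested genes higher and 5.50% lower, no call among 4 is near the background. Ldha, which favours lactate, was among the most abundant genes of the list at 216.2, 220.0 and 212.4 FPKM in Ad-scramble and 230.4, 218.8 and 219.9 FPKM in Ad-SPTBN1 libraries. The groups overlapped (log2 difference 0.04 ± 0.03 SE, limma, adjusted p = 0.384). Ldhb, the form typical of adult heart, stood at 14.3, 14.8 and 15.5 FPKM against 14.7, 16.3 and 16.7 FPKM, again with overlap (log2 difference 0.09 ± 0.06 SE, limma, adjusted p = 0.358). Ldha made up 93.6% of the pair in Ad-scramble and 93.4% in Ad-SPTBN1 libraries. Slc16a3, the lactate exporter MCT4, averaged 11.2 and 11.8 FPKM (limma, adjusted p = 0.296). Pdk1, which turns off pyruvate dehydrogenase, averaged 3.28 and 3.06 FPKM (limma, adjusted p = 0.507).

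Fructose 2,6-bisphosphate is the strongest activator of phosphofructokinase, and neither Pfkfb3 nor Pfkfb4, the listed enzymes that set it, was called or had an unadjusted p under 0.05, nor did limma-voom call either. Tigar, a fructose 2,6-bisphosphatase among the other glycolysis genes below, was chosen after its values were seen and averaged 3.58 and 4.33 FPKM (limma, adjusted p = 0.0640; limma-voom, adjusted p = 0.0409). Pfkfb3 stood at 15.8, 15.0 and 16.2 FPKM in Ad-scramble and 15.7, 14.8 and 15.0 FPKM in Ad-SPTBN1 libraries, with overlap (log2 difference -0.05, limma, adjusted p = 0.529). Pfkfb4 stood at 1.92, 1.6 and 1.71 FPKM against 1.71, 2.09 and 1.98 FPKM, with overlap (log2 difference 0.09, limma, adjusted p = 0.503). Pfkfb3 held 90.02% of the pair's summed FPKM in Ad-scramble and 88.7% in Ad-SPTBN1 libraries.

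**Figure D4:**
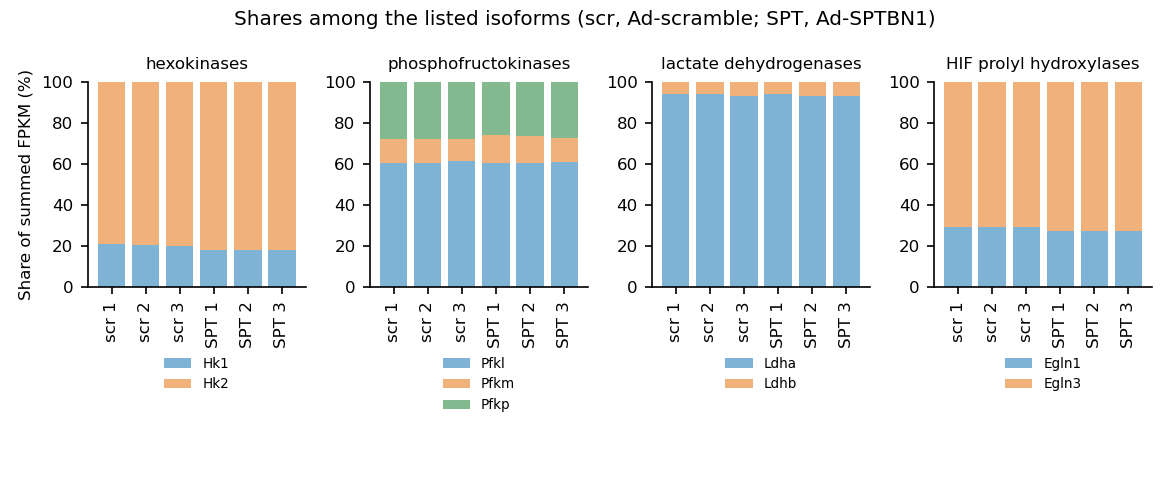
Share of each listed isoform in the summed FPKM of the listed isoforms in each library, as stacked bars that reach 100%; isoforms outside the list, such as Egln2, are not counted, and scr is Ad-scramble and SPT is Ad-SPTBN1. Hk2 holds 79.6% of the hexokinase pair in Ad-scramble and 81.96% in Ad-SPTBN1 libraries, and the main listed isoform is the same in every library of each panel.

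Of the 3 listed genes of oxygen sensing, Hif1a, Egln1 and Egln3, none was called by limma or limma-voom, and 1 had an unadjusted p under 0.05 (Egln3). No call among 3 is near the background, where limma called 5.54% of all tested genes higher and 5.50% lower. Hif1a, the regulated subunit of HIF, averaged 25.0 ± 1.48 and 25.2 ± 0.129 FPKM (SD, n = 3), a log2 difference of 0.02 ± 0.04 (SE; limma, adjusted p = 0.846). HIF alpha is controlled mainly as a protein, which was not measured. Egln1 (PHD2), the main prolyl hydroxylase, stood at 29.9, 31.6 and 30.2 FPKM in Ad-scramble and 30.1, 28.5 and 29.1 FPKM in Ad-SPTBN1 libraries. These overlap (log2 difference -0.06 ± 0.04 SE, limma, adjusted p = 0.307). Egln3 (PHD3), a hydroxylase that is itself a HIF target, stood at 73.2, 76.4 and 72.6 FPKM against 81.0, 76.9 and 78.3 FPKM. Its groups did not overlap, and the log2 difference of 0.09 ± 0.03 (SE) did not pass the test (limma, adjusted p = 0.136). The share of Egln3 in the pair was 70.8% ± 0.193 in Ad-scramble and 72.9% ± 0.0234 in Ad-SPTBN1 libraries (SD, n = 3), without overlap.

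Among the 10 HIF targets, Car9, Ero1l and Ndrg1 were called higher and none lower. Over all tested genes these shares were 5.54% and 5.50%. In limma, 1 target had a value below 0 at an unadjusted p under 0.05 (Adm), and limma-voom called 4 higher and none lower. Car9 (chromosome 4, 43506966 to 43513729, plus strand), the cell-surface carbonic anhydrase that helps cells export acid, is a widely used hypoxia marker. It was one of the low genes, at 3.21, 3.55 and 2.60 FPKM in Ad-scramble and 5.44, 5.42 and 5.97 FPKM in Ad-SPTBN1 libraries. These values rest on 140, 149 and 111 recovered reads against 239, 236 and 254. The groups were far apart relative to the spread within them. The mean rose from 3.12 ± 0.480 to 5.61 ± 0.313 FPKM (SD, n = 3), a ratio of 1.80, and the log2 difference was 0.69 ± 0.09 (SE; limma, adjusted p = 0.00518). Since the added 1 FPKM weighs on low genes, this difference was 0.39 with 5 FPKM added instead and reached 0.85 with limma-voom.

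Ero1l (chromosome 14, 45283087 to 45318771, minus strand), the oxidase that drives disulfide formation in the endoplasmic reticulum, stood at 22.8, 21.1 and 22.6 FPKM in Ad-scramble and 29.0, 27.2 and 30.2 FPKM in Ad-SPTBN1 libraries. No values overlapped. The mean rose from 22.2 ± 0.949 to 28.8 ± 1.51 FPKM (SD, n = 3), a ratio of 1.299, with a log2 difference of 0.36 ± 0.05 (SE; limma, adjusted p = 0.00567). Ndrg1 (chromosome 15, 66929318 to 66969640, minus strand), a stress-responsive gene linked to differentiation, stood at 5.60, 5.77 and 5.93 FPKM against 6.66, 6.82 and 7.08 FPKM. Its groups did not overlap. The mean rose from 5.77 ± 0.169 to 6.85 ± 0.208 FPKM (SD, n = 3), a log2 difference of 0.21 ± 0.04 (SE; limma, adjusted p = 0.0227). The call was lost without a filter on low values.

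**Figure D5:**
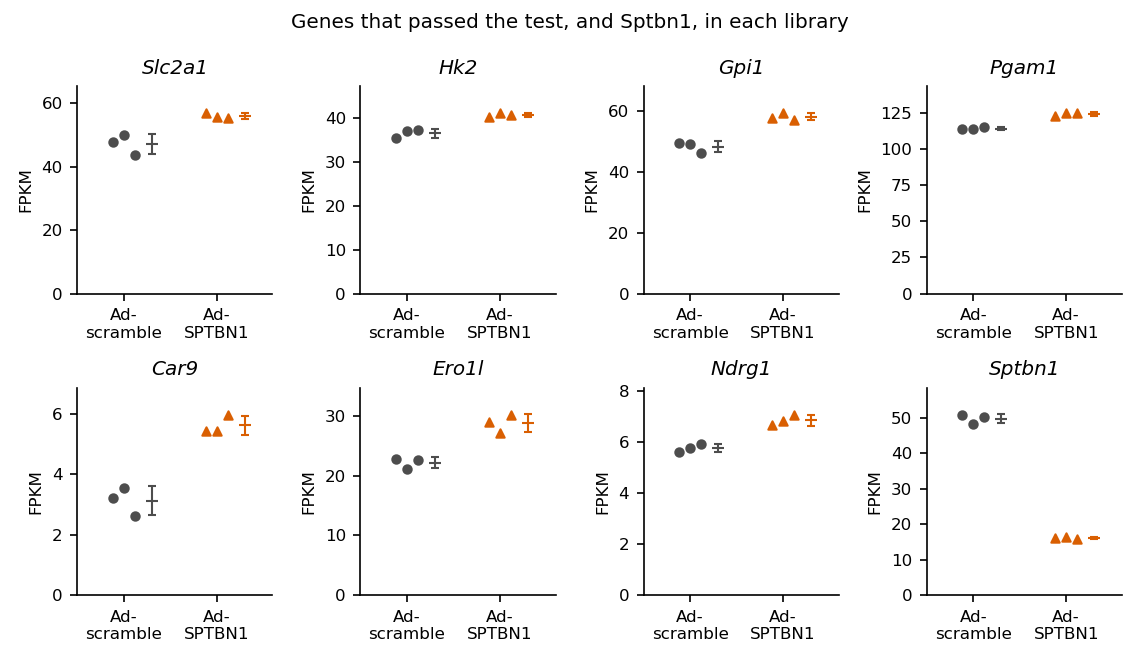
FPKM in each library for the 7 genes called higher and for Sptbn1, with the group mean ± SD (n = 3) beside the points and each axis starting at 0. In each of the 7 the libraries labelled Ad-SPTBN1 lie above those labelled Ad-scramble, from 1.80 times for Car9 to 1.09 times for Pgam1, while Sptbn1 lies below at 32.4%.

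P4ha1, a prolyl hydroxylase needed for stable collagen, was the most abundant of these 10 genes at 132.9, 131.2 and 131.6 FPKM in Ad-scramble and 138.7, 140.8 and 140.7 FPKM in Ad-SPTBN1 libraries. Its groups did not overlap, but the log2 difference of 0.09 ± 0.02 (SE) was just over the threshold (limma, adjusted p = 0.0510), and limma-voom called it (adjusted p = 0.0237). P4ha2, a related subunit, stood at 12.3, 12.4 and 12.4 FPKM against 12.5, 12.9 and 11.9 FPKM (log2 difference 0.01, limma, adjusted p = 0.883). Adm, the vasodilator peptide adrenomedullin, had all 3 Ad-SPTBN1 values below its Ad-scramble values, with means of 75.1 ± 1.01 and 72.0 ± 0.925 FPKM (SD, n = 3; log2 difference -0.06, limma, adjusted p = 0.171). The other 4 targets were not called, at adjusted p from 0.386 to 0.799 in limma. They averaged 1.79 and 2.15 FPKM for Ankrd37, 81.6 and 85.3 for Ddit4, an inhibitor of mTORC1, 13.3 and 13.4 for Higd1a, a mitochondrial protein, and 25.8 and 24.9 for Bhlhe40, a transcriptional repressor.

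Further genes of the same pathways were counted from 3 lists. Of 38 other tested genes of glycolysis and its branches, 2 were called higher and 2 lower in limma, and 5 and 2 by limma-voom. Their median log2 difference was -0.0043 in limma. The share called higher in limma, 5.26%, was near the 5.54% of all tested genes, of which 5.50% were called lower. Bsg, the partner protein of lactate transporters, rose from 445.0 ± 8.70 to 477.1 ± 3.41 FPKM (SD, n = 3; limma, adjusted p = 0.0406). Gpd2, the mitochondrial glycerol phosphate dehydrogenase, averaged 2.79 and 3.54 FPKM (limma, adjusted p = 0.0469). Bpgm, which makes 2,3-bisphosphoglycerate, fell from 14.3 to 12.1 FPKM, and Pygb, a glycogen phosphorylase, fell from 17.9 to 16.2 FPKM (limma, adjusted p = 0.0268 and 0.0356). The calls of Bsg, Gpd2 and Pygb were lost whichever library was left out, and that of Bpgm was lost without any library other than Ad-SPTBN1 1, with adjusted p up to 0.0889.

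Of 16 other tested genes of the HIF machinery none was called in limma. With 5.54% of all tested genes called higher and 5.50% lower, no call among 16 is near the background. Among the 16, 1 stood above and 2 below at an unadjusted p under 0.05. Limma-voom called 2 of them higher and 1 lower. The 16 include 2 further oxygen-sensing hydroxylases, named after their values were seen. Hif1an, which modifies HIF alpha at an asparagine, averaged 9.81 and 11.4 FPKM (limma, adjusted p = 0.0804; limma-voom, adjusted p = 0.00823). Egln2, another prolyl hydroxylase, averaged 20.4 and 20.9 FPKM (limma, adjusted p = 0.787). The median log2 difference over the 16 was 0.02. Of 47 other tested HIF targets, 2 were called higher and 3 lower in limma, with a median of -0.06. The share called higher was 4.3%, against 5.54% of all tested genes, of which 5.50% were called lower. At an unadjusted p under 0.05, 8 stood above and 11 below, against 1715 and 1679 of all 12608 tested genes. Limma-voom called 4 higher and 9 lower, against 1084 and 1062 of 12601 genes. Tfrc, the transferrin receptor, rose from 6.5 to 8.52 FPKM (limma, adjusted p = 0.00676). Tgfb3, a growth factor, fell from 50.3 to 38.1 FPKM (limma, adjusted p = 0.000672). Edn1, the vasoconstrictor endothelin, fell from 60.8 to 54.5 FPKM (limma, adjusted p = 0.0168), and Cav1, the caveolae protein, fell from 85.2 to 75.5 FPKM (limma, adjusted p = 0.0219). Angptl4 and Vegfa were picked after their values were seen. Angptl4, an inhibitor of lipoprotein lipase, rose from 33.3 to 39.5 FPKM (limma, adjusted p = 0.0255). Vegfa, the vascular growth factor, averaged 134.3 and 136.5 FPKM (limma, adjusted p = 0.679). Tfrc and Tgfb3 kept their calls whichever library was left out. Edn1 lost its call without Ad-scramble 1, Ad-SPTBN1 2 or Ad-SPTBN1 3, Cav1 without Ad-scramble 1, Ad-scramble 3 or Ad-SPTBN1 2, and Angptl4 without Ad-scramble 1 or 2 or Ad-SPTBN1 1 or 2, with adjusted p up to 0.0637, 0.0717 and 0.0850.

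Markers of several cell types moved between the same groups. For comparison, limma called 5.54% of all tested genes higher and 5.50% lower. At an unadjusted p under 0.05, 1715 and 1679 of the 12608 stood above and below. Limma-voom called 1084 and 1062 of 12601. In bulk RNA, fewer cells of a type and less RNA per cell cannot be told apart. Of 10 tested cardiomyocyte markers 6 were called higher, namely Actc1, Myh6, Tnnt2, Mybpc3, Myl2 and Actn2, and all 10 differences lay above 0. The summed FPKM of the 15 listed ran from 83.7 to 89.5 in Ad-scramble and from 129.0 to 135.9 in Ad-SPTBN1 libraries. Myh7, Ttn, Ryr2, Pln and Ckm, also listed, were below 1 FPKM and were not tested. Of 13 fibroblast markers 1 was called higher and 8 lower, with sums of 4302 to 4633 and 4531 to 4755 FPKM that are led by Col1a1 (2078 and 2402 on average). Of 11 smooth muscle and pericyte markers 1 was called higher and 4 lower, with sums of 1931 to 1954 and 1883 to 1911 FPKM. Of 8 epicardial and mesothelial markers 5 were called higher, with sums of 110.4 to 114.3 and 137.7 to 139.0 FPKM. None of the 9 endothelial and 3 macrophage markers tested was called in limma, where 1 endothelial marker stood above and 1 below at an unadjusted p under 0.05, and limma-voom called 1 endothelial marker higher. The part of these markers in the glycolytic and hypoxia genes' differences was not tested.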

How the data were processed

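RNA was sequenced from 6 libraries, and the authors deposited 1 table of FPKM values with a column per library, mapped through the sample number in the labels. Per the labels' protocols, total RNA was extracted with TRIzol and made into libraries with a NEBNext Ultra kit. The submitters' processing notes name the builds GRCm38 and mm10. Which aligner and counter were used, whether strand was used and how reads matching several places were treated is not given in the sources used here.

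The test ran in R 4.3.3 with limma 3.58.1, after 1 was added to each FPKM and log2 taken (trended prior variance, both groups, no covariate, no rescaling, Benjamini-Hochberg adjustment) over genes whose mean reached 1 FPKM. The scale understates changes of low genes. With GENCODE M21 exon lengths, 95.6% to 95.7% of values above 0 came out as whole reads within 0.1. These reads served the limma-voom alternative and the sums over pseudogene copies, which were chosen after seeing the data. The fit was tested on simulated data. Promoter windows are from RefSeq.

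Values in every library are given for called genes, the most abundant gene of each role and isoform families, and other members by group means. In related lists, up to 4 called genes are named by smallest adjusted p. Members, lists (other glycolysis, HIF machinery, other HIF targets, cell type markers) and tests were chosen with earlier results of these data known.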

Additional observations from a re-analysis of the deposited data

How the results depend on the processing

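Without a filter on low values, 334 genes were called higher and 331 lower by limma, against 698 and 693, and 5 members were called higher against 7. With limma-voom on recovered reads the counts were 1084 and 1062. Leaving out 1 library at a time gave 302 to 441 genes called higher, 320 to 438 lower, and 3 to 7 members higher. No member was called lower under any alternative run. Leaving out libraries turned the sign of 4 uncalled log2 differences. Tpi1 ran from -0.0121 without Ad-SPTBN1 1 to 0.0311, Eno3 from -0.0493 without Ad-SPTBN1 1 to 0.0579 (and was -0.0033 without Ad-scramble 1), Hif1a from -0.0263 without Ad-scramble 2 to 0.0561, and P4ha2 from -0.0132 without Ad-SPTBN1 2 to 0.0404. The deviations of same-numbered libraries correlated at 0.00586, -0.0338 and 0.0104, and not every library correlated best with its own number. With 3 libraries per group, such correlations do not settle whether the replicate numbers pair the libraries. With the replicate number as a block, 369 genes were called higher and 361 lower, and 4 members higher, with Hk2, Pgam1 and Ndrg1 losing their call (adjusted p 0.0528, 0.0623 and 0.0548). Called members numbered 5 without a trend, 8 with array weights, and 7 with 0.1 or 5 FPKM added, 2 rescalings, a robust prior, copies' reads added, or a minimum of 5 FPKM, which left Car9 untested and added P4ha1. The causes were not tested. Low genes such as Aldoc rest on few reads, which limits their precision.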
